A study of Mus musculus with 3 samples.

Results

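MHC class I presentation genes build the complex that shows peptides from inside a cell on its surface. The 10 genes described here, chosen by their gene symbols, were B2m, H2-K1, H2-D1, H2-Q4, H2-Q7, H2-T23, H2-T24, Tap1, Tap2 and Tapbp. All 10 were measured, each by 1 probe set, among 23185 genes named on the array. Levels were read in LT-HSCs, the long-term haematopoietic stem cells of the marrow from which all blood cells derive, taken from female C57Bl/6 mice aged 8 to 10 weeks. The mice were left non-irradiated, or received total body irradiation (TBI) of 8 Gy at CDR, or 8 Gy as FLASH. FLASH is irradiation at an ultra-high dose rate, and CDR was taken to mean conventional dose rate, which the labels do not spell out. Per the labels, 10000 LT-HSCs were taken at day 15 after TBI. Each of the 3 groups had 1 array, so that array and group cannot be told apart, no value has a replicate error, and no test was possible. "Higher" and "lower" describe these arrays. Neither the sorting gate nor the number of mice behind an array is given in the sources used here.

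A class I molecule pairs a heavy chain with the invariant light chain beta-2 microglobulin, the product of B2m, and a peptide. Peptides are cut by the proteasome, pumped into the endoplasmic reticulum by the TAP transporter and loaded with the help of tapasin. Cytotoxic T cells read the classical heavy chains, while natural killer cells are restrained by class I molecules, including the Qa-1 molecule encoded by H2-T23. Nearly all nucleated cells carry class I, and interferons raise its transcription through the coactivator NLRC5 and through interferon-responsive sites in the promoters.

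The table held the authors' processed levels, taken here as log2. Detected genes were those whose brighter array of the 2 compared exceeded the 95th percentile, on that array, of 1368 chemosensory receptor genes (olfactory, vomeronasal and trace amine), a level between 4.15 and 4.21. By that measure between 13068 and 13316 genes were above the level on each array. The cell label was checked against 10 measured stem cell markers, which all read above the level on each array. Procr read 7.15, 5.42 and 6.33 and Slamf1 6.13, 6.11 and 6.24 on the non-irradiated, CDR and FLASH arrays. Markers of other cell types were mixed. The T cell genes Cd3d, Cd3e and Cd3g and the B cell gene Ms4a1 were under the level on all 3 arrays, while on the non-irradiated array the B cell gene Cd79b read 9.04, the cytotoxic cell gene Nkg7 10.94, the antibody-secreting cell gene Jchain 9.79, the monocyte gene Ly6c2 11.08 and the granulocyte precursor gene Mpo 12.36. Exactly equal values were common in the table: CDR and FLASH arrays tied for 54.1% of named genes.

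Promoter sequences were available from RefSeq (GRCm38.p6) for 8 of the 10 genes. The 250 bases before the transcript start are shown for H2-Q7 and H2-T23, the members that differed most from the non-irradiated array, and for H2-D1 and B2m, which differed little. They lie at chr17:35438905-35439154 (+ strand), chr17:36032702-36032951 (- strand), chr17:35262844-35263093 (+ strand) and chr2:122147437-122147686 (+ strand), in that order. Each is written 5′ to 3′ along the gene, and capitals mark the shared runs and motif matches described after the sequences.
H2-Q7: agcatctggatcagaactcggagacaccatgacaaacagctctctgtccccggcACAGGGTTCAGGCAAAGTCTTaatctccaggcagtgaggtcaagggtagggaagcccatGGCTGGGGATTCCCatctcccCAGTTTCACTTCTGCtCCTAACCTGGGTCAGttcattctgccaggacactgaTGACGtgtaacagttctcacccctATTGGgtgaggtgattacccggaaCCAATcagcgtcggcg
H2-T23: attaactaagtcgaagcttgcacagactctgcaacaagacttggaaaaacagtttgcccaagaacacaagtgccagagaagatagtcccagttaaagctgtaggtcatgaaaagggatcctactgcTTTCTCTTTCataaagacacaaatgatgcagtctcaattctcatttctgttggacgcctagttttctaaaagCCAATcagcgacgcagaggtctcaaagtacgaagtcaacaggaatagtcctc
H2-D1: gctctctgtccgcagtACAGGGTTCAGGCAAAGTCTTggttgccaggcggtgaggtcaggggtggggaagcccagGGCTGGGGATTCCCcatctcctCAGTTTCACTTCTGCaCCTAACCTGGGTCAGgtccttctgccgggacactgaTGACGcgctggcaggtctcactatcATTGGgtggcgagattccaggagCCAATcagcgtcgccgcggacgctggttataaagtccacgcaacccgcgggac
B2m: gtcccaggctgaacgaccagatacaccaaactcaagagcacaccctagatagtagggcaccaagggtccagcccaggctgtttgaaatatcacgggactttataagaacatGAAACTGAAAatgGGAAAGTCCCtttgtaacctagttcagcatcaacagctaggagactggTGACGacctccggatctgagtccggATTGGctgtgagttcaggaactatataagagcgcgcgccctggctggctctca

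The runs of at least 14 bases that H2-K1, H2-D1 and H2-Q7 have in common were read from the sequences, so that their presence in these 3 genes is a matter of how they were chosen. One of them, GGCTGGGGATTCCC, holds the NF-kB site known from H2 promoters and was absent, as a whole, from the 250 bases of H2-Q4. Over all 32851 promoter windows of this length, both strands included, it occurred in 0.0152%. A second, CAGTTTCACTTCTGC, holds the interferon consensus sequence of H2 genes. It was also found before H2-Q4 and occurred in 0.0213% of windows. The runs ACAGGGTTCAGGCAAAGTCTT and CCTAACCTGGGTCAG occurred in 0.0183% and 0.0152%, and the former was found before H2-Q4 as well. Patterns of known factors were then searched on both strands, with letters settled after the sequences were read. The general interferon response element, read as GAAA, any 2 bases and GAAA, was found before B2m and H2-T23 and in 2.98% of windows. An NF-kB pattern, read as GGG, any 2 bases and TTTCC, was found before B2m and H2-Q4 and in 1.41% of windows. TGACG, a pattern of CREB and ATF factors, was found before 6 of the 8 genes and in 17.8% of windows, and CCAAT, the box bound by NF-Y, before 8 of 8 and in 33.8%. None of the matches overlapped another within a promoter. H2-Q7, at least 2-fold lower on each irradiated array, and H2-D1, within 2-fold, thus held the same runs and patterns. Their 250 bases were 85.8% identical over 211 aligned bases, while those of H2-T23 and H2-D1 were 56.8% identical over 229. Among the 4 genes H2-K1, H2-D1, H2-Q4 and H2-Q7, identity ran from 84.0% to 89.5%. A match describes letters and shows no binding.

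**Figure D1:**
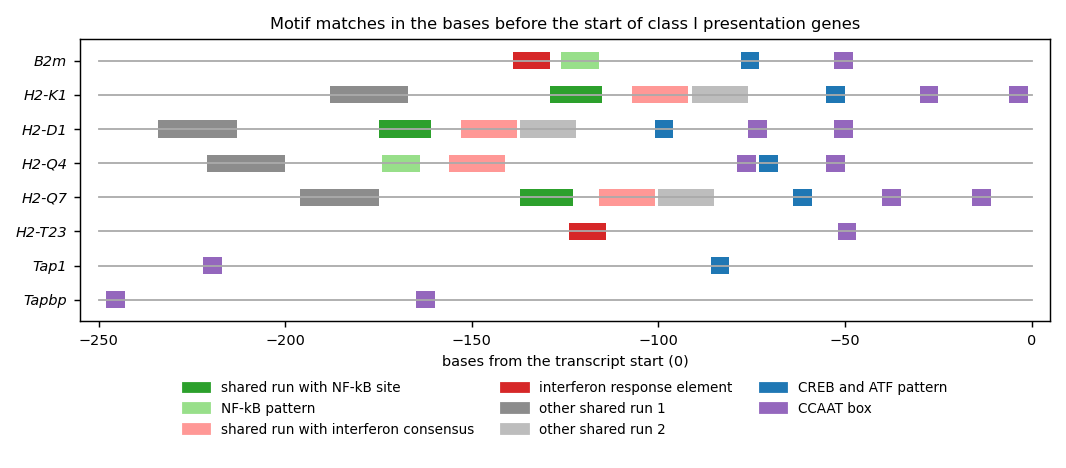
Motif matches in the 250 bases before the transcript start of 8 class I presentation genes, drawn to scale as distance in bases from the start (for H2-K1, the start that lies further into the gene of the 2 listed). H2-K1, H2-D1, H2-Q4 and H2-Q7 share a long common run, an NF-kB match and a run with the interferon consensus, while H2-T23 holds the general interferon response element and 1 CCAAT box.

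The comparison of each irradiated array with the non-irradiated one asked how these genes stood 15 days after 8 Gy. The non-classical heavy chain genes H2-T23 and H2-Q7 were at least 2-fold lower on CDR and likewise on FLASH, while B2m and the classical heavy chain genes H2-K1 and H2-D1 stayed within 1.16-fold. The peptide transporter and tapasin genes were lower by less than 1.36-fold. All 10 members were detected in every comparison and read above the detection level on all 3 arrays, by at least 1.46 log2 units. The CDR and FLASH comparisons share the non-irradiated array, and their values are therefore given side by side and not counted as independent.

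Qa-1, the product of H2-T23, presents leader peptides of other class I molecules to the CD94/NKG2A receptor of natural killer cells. H2-T23 read a log2 level of 8.25 without irradiation, 6.82 after CDR and 6.56 after FLASH. The non-irradiated array was thus the high one and the irradiated arrays lay close to each other. The difference from the non-irradiated array was -1.43 on CDR (2.70-fold lower) and -1.69 on FLASH (3.23-fold lower), the largest of any member in each comparison. Of all detected genes, 1.15% had a more negative difference on CDR and 0.391% on FLASH. H2-T24, the measured gene before H2-T23 in the RefSeq gene order, encodes a less studied class I-like chain. It read 5.69, 5.86 and 5.69, with the non-irradiated and FLASH arrays exactly tied. Its differences were 0.17 on CDR and 0.00 on FLASH, so that H2-T24 showed none of the difference seen for H2-T23. H2-T22, the measured gene after H2-T23 in that order, was lower on both irradiated arrays, at -0.70 and -1.18.

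H2-Q7 encodes a Qa-2 antigen, a non-classical molecule that can be anchored in the membrane by a lipid. H2-Q7 read 8.96 without irradiation, 7.59 after CDR and 7.91 after FLASH. The difference was -1.37 on CDR (2.59-fold lower) and -1.04 on FLASH (2.06-fold lower), and here the CDR array was the lowest of the 3. With an offset of 32 added to the linear levels, the FLASH difference was -0.95 and missed 2-fold. Of all detected genes, 1.24% and 1.51% had a more negative difference in the respective comparisons. H2-Q4, which encodes another heavy chain of the Q region, read 6.19, 5.62 and 5.70. Its differences of -0.57 and -0.49 put it 1.49-fold lower on CDR and 1.40-fold lower on FLASH, short of 2-fold. With the offset, H2-Q4 was at -0.37 and -0.32. Class I genes are similar in sequence, those of the Q region among them. How far their probe sets share signal, those of H2-K1, H2-D1 and H2-T23 included, was not tested.

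H2-K1 and H2-D1 encode the classical heavy chains K and D, which present peptides to cytotoxic T cells. H2-K1 read 10.52 without irradiation, 10.39 after CDR and 10.38 after FLASH. H2-D1 read 12.51, 12.39 and 12.31. For both genes the non-irradiated array was the highest, by small steps. The differences of H2-K1 were -0.13 and -0.14, and those of H2-D1 -0.12 and -0.20, on CDR and FLASH. The direction of H2-D1 on the CDR array depended on the scaling, as it became 0.01 after quantile normalisation. B2m, the light chain gene, read 12.81, 12.73 and 12.73, with differences of -0.07 in both comparisons. These 3 genes lay inside the range of -0.61 to 0.47 on CDR, and of -0.61 to 0.48 on FLASH, that held the middle 90% of detected genes.

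**Figure D2:**
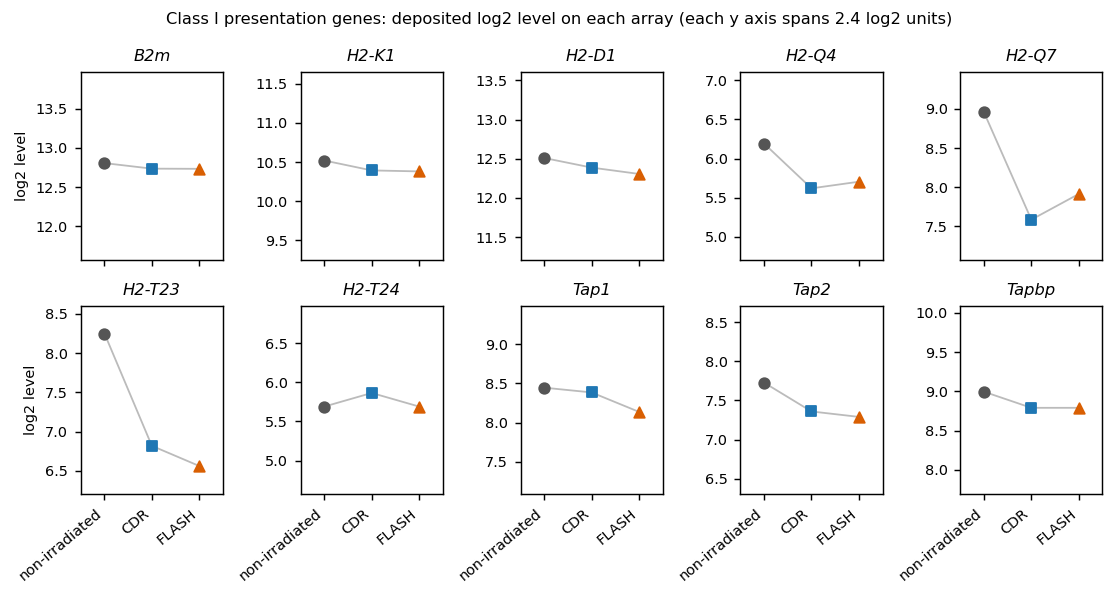
Deposited log2 level (y axis) of each of the 10 genes on the non-irradiated, CDR and FLASH arrays (x axis), 1 array a group; every panel spans the same number of log2 units and grey lines only join the points. H2-Q7 and H2-T23 drop from 8.96 and 8.25 on the non-irradiated array to between 6.56 and 7.91 on the irradiated ones, while B2m stays between 12.73 and 12.81.

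Tap1 and Tap2 encode the subunits of the peptide transporter. Tap1 read 8.45 without irradiation, 8.39 after CDR and 8.14 after FLASH. The CDR array stayed near the non-irradiated one (-0.06), and the FLASH array was the lowest (-0.31, 1.24-fold). Tap2 read 7.73, 7.36 and 7.29, with differences of -0.37 (1.29-fold lower) and -0.44 (1.35-fold lower). Here both irradiated arrays lay under the non-irradiated one and near each other. Tapbp encodes tapasin, which bridges the transporter and the empty class I molecule. Tapbp read 9.0 on the non-irradiated array and exactly the same value, 8.79, on both irradiated arrays, a difference of -0.21.

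Counted over the 10 members, 2 were lower by 2-fold or more on CDR, 8 within 2-fold and 0 higher by 2-fold or more. Those shares over 13448 detected genes were 2.36% lower and 0.766% higher. On the FLASH array the members gave the same counts of 2, 8 and 0, beside 1.75% lower and 1.17% higher by 2-fold or more among 13296 detected genes. Lower by any amount were 9 members on the CDR array, against 30.4% of detected genes, and 1 was higher, against 34.7%. On the FLASH array 9 were lower, against 32.9%, 0 were higher, against 33.8%, and H2-T24 was tied. The members' median difference was -0.17 on CDR and -0.26 on FLASH, and the median of all detected genes was 0.00 in both. The 4 genes of the Q and T regions had medians of -0.97 and -0.77, and Tap1, Tap2 and Tapbp medians of -0.21 and -0.31. Most members thus differed by little, and 2 heavy chain genes carried the large differences.

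FLASH and CDR, which gave the same dose, were also set against each other to compare the modes of delivery. None of the 10 members differed by 2-fold or more, beside 0.144% of 13192 detected genes lower and 0.849% higher by that much on FLASH. H2-Q7 had the largest positive difference, 0.33 (1.25-fold higher on FLASH). H2-T23 and Tap1 were lower on FLASH by small amounts, at -0.26 and -0.25, and H2-T24 was at -0.17. H2-Q4 was at 0.08, H2-D1 at -0.08, Tap2 at -0.07 and H2-K1 at -0.01. B2m differed by -0.0021, a sign that turned under quantile normalisation or cyclic loess. In all, 7 members were lower, against 31.9% of detected genes, 2 were higher, against 25.7%, and Tapbp was tied. The median was -0.04. H2-Q7 was the 1 member outside the range of -0.26 to 0.27 that held the middle 90% of detected genes.

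**Figure D3:**
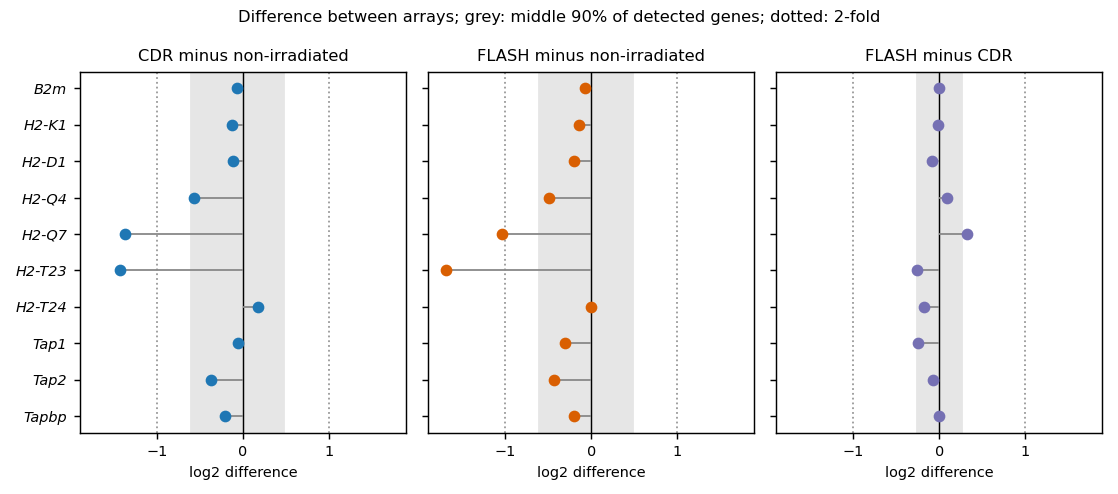
Log2 difference (x axis) of each member between pairs of arrays, with 1 array a group; grey bands hold the middle 90% of detected genes and dotted lines mark 2-fold. H2-Q7 and H2-T23 lie beyond the 2-fold line for CDR and for FLASH against non-irradiated, and 0 members do for FLASH against CDR.

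Other heavy chain genes of the H2 complex were mostly dim. Of 19 measured, 3 were detected in each comparison, namely H2-T22, H2-T10 and H2-M3. H2-M3, whose product presents formylated peptides, read 6.72 without irradiation, 6.35 after CDR and 5.61 after FLASH. Its differences were -0.38 and -1.11, and -0.73 between FLASH and CDR. H2-T22, whose product is a ligand of some gamma-delta T cells, read 6.88, 6.18 and 5.71, with differences of -0.70 and -1.18. H2-T10, a close relative of H2-T22 whose signal may not be separable from it, was at 0.11 and 0.00. H2-T22 and H2-M3 thus passed 2-fold on FLASH and stayed within it on CDR, and whether these arrays differ could not be tested. With the offset of 32, H2-T22 was at -0.83 and H2-M3 at -0.77 on FLASH, both short of 2-fold.

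Among class I-like genes outside the H2 complex, 6 of 8 measured were detected against the non-irradiated array. On CDR 1 of them was lower by 2-fold or more and 0 were higher by as much, and on FLASH 2 and 0. Those shares over all detected genes were 2.36% and 0.766% on CDR, and 1.75% and 1.17% on FLASH. Mill2, a class I-like gene, read 6.06, 4.97 and 5.0 on the non-irradiated, CDR and FLASH arrays, with differences of -1.09 and -1.06. Mr1, which presents microbial vitamin metabolites to mucosal-associated T cells, was at -0.73 and -1.04. With the offset, Mill2 was at -0.64 and -0.62 and Mr1 at -0.61 on FLASH, so that neither passed 2-fold. Fcgrt, the heavy chain of the neonatal Fc receptor, was at -0.42 and -0.30, and Hfe, a regulator of iron uptake, at 0.31 and 0.21.

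The genes that supply and load peptides showed only differences within 2-fold. Shares lower and higher by any amount over all detected genes were 30.4% and 34.7% on CDR, and 32.9% and 33.8% on FLASH. The immunoproteasome and its PA28 activator cut peptides suited to class I, and 4 of these 5 genes were lower after CDR and 4 after FLASH. Psmb8 was at -0.12 and -0.21, Psmb9 at -0.22 and -0.17, Psmb10 at 0.01 and 0.00, and Psme2 had the largest differences, -0.32 and -0.49. The constitutive genes Psmb6, Psmb7 and Psme3 pointed the other way, with 3 of 3 higher on each irradiated array and medians of 0.14 and 0.20. Small rises were also common among 11 detected housekeeping genes, with 9 higher and 1 lower on each irradiated array and a median of 0.08. Psmb9 lies next to Tap1 and Psmb8 between Tap1 and Tap2 in the RefSeq gene order. Of 9 other loading and trimming genes, 6 were higher on the CDR array and 0 lower, and 6 were higher on FLASH and 1 lower. Under quantile normalisation or cyclic loess the CDR count became 6 higher and 3 lower. The chaperone genes Calr and Canx were at 0.35 and 0.31, and at 0.19 and 0.15, and Pdia3, an oxidoreductase of the loading complex, at 0.17 and 0.37. Uggt1, a folding sensor, had the largest of these differences, 0.51 and 0.45. Tapbpl, a relative of tapasin, was exactly tied on all arrays, and Erap1, the trimming peptidase, was at 0.00 and -0.10.

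**Figure D4:**
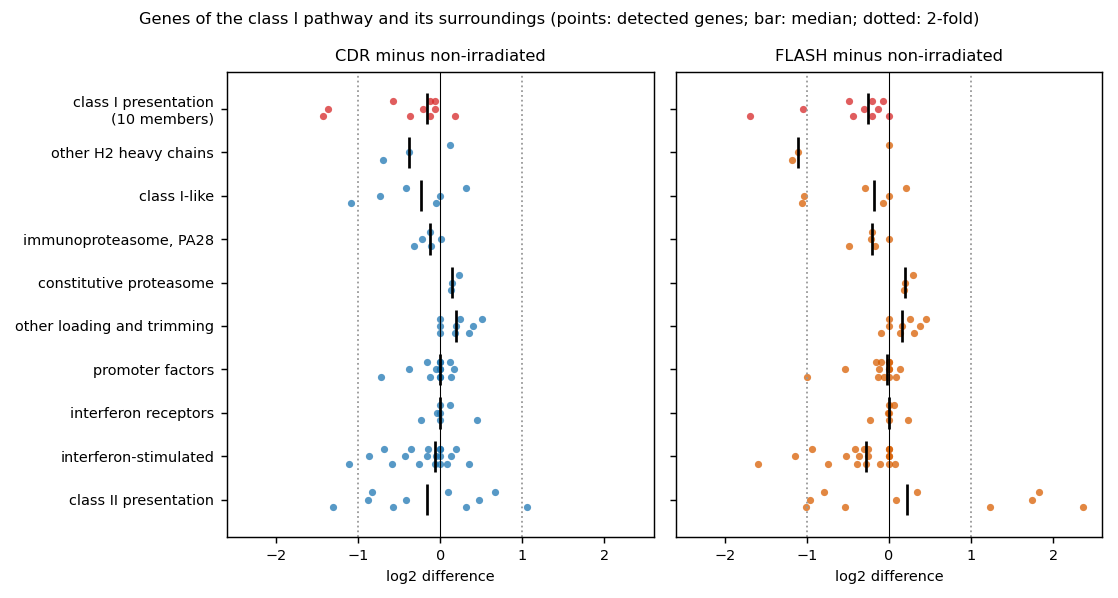
Log2 difference from the non-irradiated array (x axis) of detected genes in 10 groups around class I presentation, for the CDR array (left) and the FLASH array (right); each point is 1 gene, black bars are medians and dotted lines mark 2-fold. The members' medians are -0.17 and -0.26, those of the constitutive proteasome genes 0.14 and 0.20, and the class II genes reach 2.36 on FLASH.

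Of 14 detected genes for factors that act at class I promoters, 0 were at least 2-fold different on the CDR array and 1 was on the FLASH array. Nlrc5, the class I coactivator, read 5.81 on all 3 arrays, an exact tie. Rfx5, a DNA-binding subunit of the RFX complex used by class I and class II promoters, read 7.29, 6.90 and 6.28, with differences of -0.39 and -1.0 (-0.78 on FLASH with the offset, short of 2-fold). Irf2 was at -0.73 and -0.54 and Irf1, an interferon-induced activator, at -0.12 in both. Interferon-stimulated genes had 11 of 19 detected members lower on the CDR array, against 30.4% of all detected genes, and 4 higher, against 34.7%. Their median was -0.06. After median centring, which leaves no exact ties, 10 were lower and 9 higher there. Quantile normalisation gave 12 and 7, and cyclic loess 14 and 5. On the FLASH array 13 were lower, against 32.9%, and 1 higher, against 33.8%, with a median of -0.29. The counts there were 13 and 6 after median centring, 15 and 4 under quantile normalisation and 16 and 3 under cyclic loess. Rsad2, an antiviral enzyme, was at -1.12 on CDR and read under the detection level on FLASH, at least 2.93-fold lower. Ddx58, a sensor of viral RNA, was at -0.69 and -1.15, and Oasl2 at -0.59 and -0.94. With the offset, Rsad2 (-0.60 on CDR and -0.79 on FLASH) and Ddx58 on FLASH (-0.87) missed 2-fold.

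In gene order on chromosome 17 of the RefSeq table, 125 other measured genes lie between Tapbp and H2-T23. Of 92 detected in the CDR comparison, 3 were lower and 2 higher by 2-fold or more, beside 2.36% and 0.766% of all detected genes. Their median was 0.00. Of 91 in the FLASH comparison, 2 were lower and 5 higher by as much, beside 1.75% and 1.17% of all detected genes. Their median was again 0.00. The lower genes, named after their values were seen, were Ltb (-2.69 and -1.68), H2-Ob (-1.31 and -1.02) and, on CDR alone past 2-fold, Lst1 (-1.04 and -0.94). With the offset, H2-Ob (-0.78 and -0.63) and Lst1 (-0.99 on CDR) missed 2-fold and Ltb passed it. Of the higher genes, H2-Eb1 on CDR (0.86), Snord52 on FLASH (0.76) and Hspa1b on FLASH (0.58) missed 2-fold with the offset. H2-Ob lies next to Tap2 in that order.

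In these bulk samples, fewer cells of a type and less RNA per cell cannot be told apart. Markers of other cell types also differed between the arrays, and their part in the differences of H2-T23 and H2-Q7 was not tested. Over all detected genes, 30.4% were lower and 34.7% higher by any amount on CDR, and 32.9% and 33.8% on FLASH. By 2-fold or more, 2.36% were lower on CDR and 1.75% on FLASH. The summed linear level of the 10 stem cell markers was 3604.3 without irradiation, 1855.5 after CDR and 1850.8 after FLASH, with 10 of 10 lower on CDR and 9 of 10 on FLASH, among them Hlf, a stem cell transcription factor, at -2.0 and -1.9. Erythroid markers, 6 of 6 above the detection level on each array, summed to 418.6, 941.2 and 1141.1. Of 14 T and NK cell markers, 9, 8 and 8 were above the level, with sums of 2272.9, 2802.3 and 2535.2. Cd3d, Cd3e, Cd3g, Cd2 and Gzma were under it on all arrays. Most of each sum came from Nkg7 (0.35 and 0.17). Of 9 detected, 2 were lower and 2 higher on CDR, and 1 lower and 5 higher on FLASH. B cell markers, 4 of 7 above the level on each array, summed to 654.1, 503.4 and 404.7, with Ms4a1, Cd22 and Ebf1 under it. Most of each sum came from Cd79b (-0.46 and -0.98), and 2 of 4 detected were lower and 1 higher on each irradiated array. Antibody-secreting cell markers, 6 of 7 above the level, summed to 1434.1, 716.8 and 1297.3, with Prdm1 under it and Jchain at -2.14 and -0.41. Monocyte and macrophage markers, 9, 9 and 8 of 9 above, summed to 2957.8, 3189.3 and 2147.9. Most of each sum came from Ly6c2 (0.13 and -0.59). On CDR 4 of 9 detected were lower and 3 higher, and on FLASH 6 of 8 were lower and 0 higher. Granulocyte markers, 7, 6 and 7 of 9 above the level, summed to 9679.8, 9829.3 and 9522.6, with Ltf and Ly6g under it. Most of that sum came from the bright genes Mpo (0.17 and 0.09) and Elane (0.38 and 0.18). Of 7 detected granulocyte markers, 3 were at least 2-fold lower on each irradiated array. They were S100a9 (-2.25 and -1.31), Ngp (-1.67 and -1.69) and Camp, which was at -1.42 on FLASH and under the level on CDR, at least 3.35-fold lower. With the offset, Camp missed 2-fold on both arrays (-0.98 and -0.76). S100a8 was at -0.20 and -0.03, and Mmp8 was tied. In all, 4 of the 7 were lower and 2 higher on each irradiated array, with medians of -0.20 and -0.03. Dendritic cell markers, 6, 6 and 7 of 9 above the level, summed to 1126.3, 925.3 and 985.9, with Siglech and Cd209a under it. Flt3 (-1.05 and -1.47) and Bst2 were the brightest of these, whereas the type 1 dendritic cell markers Clec9a (0.95 and 2.15) and Xcr1 (1.04 and 1.91) were higher. On the non-irradiated array Clec9a read 4.23 and Xcr1 4.20, close to the level. With the offset, Xcr1 (0.47) and Flt3 (-0.94) missed 2-fold on CDR. On FLASH 4 of 7 detected dendritic cell markers were higher and 1 lower, with a median of 0.22. Class II presentation genes, all 10 above, summed to 3195.7, 3039.1 and 5275.4. Of these, 5 were lower and 5 higher on CDR, with a median of -0.16, and 4 were lower and 6 higher on FLASH, with a median of 0.22. The higher genes included H2-Eb1, a class II chain (1.06 and 2.36, with 0.86 on CDR under the offset), and Cd74, the invariant chain (0.47 and 1.74). The lower ones included H2-Oa (-0.88 and -0.96), H2-DMb1 (-0.83 and -0.80) and H2-DMa (-0.58 and -0.54), whose products act in class II peptide loading.

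The genes nearest in pattern to H2-T23 were taken by Euclidean distance between log2 levels centred on each gene's mean over the 3 arrays, among 13517 other detected genes. They were Bpifc (distance 0.064), Zfp950 (0.087), Klk8 (0.10), Cyp2j9 (0.11) and Sdc2 (0.12). Those nearest to Tap1 were Prr22 (0.0069), Gm15471 (0.011), Ifih1 (0.016), Gm13271 (0.020) and Nemp2 (0.021). With 3 arrays a close pattern rests on 3 values only. Ifih1, a sensor of viral RNA, read 7.35, 7.30 and 7.06 on the non-irradiated, CDR and FLASH arrays.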

How the data were processed

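LT-HSC RNA was hybridised to 3 Affymetrix arrays, 1 a group, after whole transcript sense target labelling, per the labels' protocols. The deposited table holds the authors' processed values, read as log2 levels from their range. The submitters' processing notes name Partek. How background, summarisation and normalisation were handled is not given in the sources used here, so that their effect on small differences is unknown. Of 25206 probe sets, 23185 had 1 gene symbol in the platform table, 0 had several and 2021 were not listed and stayed unnamed. All 23185 symbols were in the RefSeq table. Differences are plain subtractions of deposited values. Called means past 2-fold among detected genes, and a fold against a value under the detection level is a lower bound against that level. The members and lists were chosen with earlier results of these data known. Genes named are the members, up to 3 detected genes a direction from each other list, a set of pathway genes, and the 5 nearest in pattern to H2-T23 and Tap1. Alternatives were quantile normalisation and cyclic loess (limma 3.58.1, R 4.3.3), centring on array medians, an offset of 32, no detection filter or the 99th percentile, folds of 1.5 and 3, and other summaries of the list. Counting was tested on simulated data, with changes well past 2-fold put into bright genes only. Calls near 2-fold or in dim genes were not covered by it. Promoters were aligned with Biopython 1.88. Python 3.11.15, numpy 2.4.6, pandas 2.3.3 and matplotlib 3.10.9 were used. Precision is limited by the number of arrays.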

Additional observations from a re-analysis of the deposited data

Results flagged for a closer look

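Of 69 members and pathway genes named by rule, 4 differed from the non-irradiated array in opposite directions on the irradiated arrays. The rule took in genes with the largest differences between FLASH and CDR, which can favour such splits. The share among all detected genes was not counted. With 1 array a group the difference was not tested. Oas1a, an interferon-induced antiviral enzyme, was at 0.35 on CDR and -0.26 on FLASH, or -0.61 between FLASH and CDR. Oas2 of the same family was at 0.13 and -0.41, or -0.55. Gbp3, an interferon-induced GTPase, was at 0.19 and -0.37, or -0.56. Atf1, a transcription factor of the CREB and ATF family, was at 0.13 and -0.16, or -0.29. None of the 10 class I presentation genes did so in the deposited values. After quantile normalisation H2-D1 was at 0.01 on CDR and -0.18 on FLASH. Genes outside the rule were not counted, such as the class II gene H2-DMb2 (-0.42 and 0.34) and the monocyte gene Csf1r (0.23 and -0.78).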

How the results depend on the processing

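No paired analysis was possible because each group had 1 array. Over median centring, quantile normalisation, cyclic loess and the offset of 32, the difference of H2-T23 ran from -1.44 to -1.22 on CDR and from -1.70 to -1.41 on FLASH, and that of H2-Q7 from -1.41 to -1.24 and from -1.08 to -0.95. With the offset, 1 member instead of 2 was at least 2-fold lower on FLASH, since H2-Q7 then missed 2-fold. At a fold of 3, 0 members were lower on CDR and 1, H2-T23, on FLASH. The members' mean was -0.42 on CDR and -0.46 on FLASH, and the median of the heavy chain genes alone was -0.35 on CDR. Among all detected genes, the offset left 152 lower and 45 higher on CDR, 101 and 78 on FLASH, and 5 and 73 between FLASH and CDR. A fold of 1.5 gave 724 and 430, 704 and 478, and 103 and 244 in that order, and a fold of 3 gave 127 and 20, 74 and 60, and 6 and 68. The other 105 medians and counts recomputed moved by less than 0.1 or stayed within 1.5 times, including counts after raising dim values to their array's detection level, which were added after seeing the data. The offset adds to low levels by construction and so lowers their differences.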

Other observations

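NKG2D ligands, stress-induced relatives of class I heavy chains, were mostly dim. Of 5 measured, 2 were detected against the non-irradiated array. Ulbp1 read 6.67 on the non-irradiated array and 6.12 on both irradiated arrays, a difference of -0.55 on each. Raet1e read 4.77, 4.74 and 4.74. Among 7 interferon receptor and kinase genes, 0 were at least 2-fold different on either irradiated array. Ifngr1, a chain of the interferon gamma receptor, read 9.22, 9.67 and 9.46, with differences of 0.45 and 0.23, and Jak1, a kinase shared by both receptor types, was at -0.23 on each.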
